A study of Oikopleura dioica with 2 samples.

Results

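The transcripts described here are 381 of the 57962 assembled components of the tunicate Oikopleura dioica, a small planktonic relative of the vertebrates that keeps a tadpole body throughout life. They were chosen by their deposited levels: at least 10 and under 100 FPKM in unfertilized eggs, and exactly 0 in larvae at 8 hours post-fertilization (hpf). FPKM counts sequenced fragments relative to the length of the transcript and the depth of the library. Because both stages were used to choose them, their levels in eggs and larvae are a description and were not tested.

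Eggs came from 46 females and larvae from the offspring of 63 adult pairs, all descended over several generations from a cohort founded by a male and a female, and kept at 20 °C. Whole eggs and whole larvae were pooled, so fewer cells of a type and less RNA per cell cannot be told apart. The table holds 1 column per stage, which its decimals mark as a mean of 2 values given to 2 decimals, and the series' design text names 2 biological replicates per stage. No SD, n or p-value between the stages could therefore be given. Each row is an assembled component, which can be a piece, an allele or a copy of a gene. The identifiers are assembly labels that carry no gene names, and no sequences were available. By identifier, 0 of the 381 matched a gene in RefSeq's annotation of assembly OKI2018_I68_1.0. Labels of this kind could not match, so this does not show whether the genes are in that annotation. No gene, function or sequence is therefore given for them.

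An egg carries RNA that the mother made while the egg grew, and early development runs on this store. As the embryo's own genome becomes active, many maternal transcripts are degraded while zygotic transcripts accumulate, a change known as the maternal-to-zygotic transition. A transcript present in eggs and missing from larvae has the profile of a maternal RNA that was cleared, provided that both stages were sequenced deeply enough to see it.

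The 381 components had a median egg level of 30.7 FPKM, with quartiles of 18.0 and 45.6 FPKM and a range of 10.015 to 99.7 FPKM. The 5356 egg components in the same window had a median of 34.3 FPKM. Together the 381 held 1.14% of the egg FPKM. They made up 49.0% of the 777 components that were above 0 in eggs and listed at 0 in larvae. All 381 counted as at least 4-fold lower in larvae on the log2(FPKM + 1) scale, which the rule fixes, against 4.4% of all components. Just outside the lower limit, the nearest components listed at 0 in larvae had 9.9 FPKM in eggs. Just above the upper limit the nearest had 100.435 FPKM. The lowest larval value above 0 in the same egg window was 0.07 FPKM.

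Larval zeros were rarer at higher egg levels. In the window of 10 to 100 FPKM, 381 of 5356 egg components (7.11%) were listed at 0 in larvae. The share was 8.7% at 10 to 20 FPKM (118 of 1357), 8.24% at 20 to 50 FPKM (196 of 2380) and 4.14% at 50 to 100 FPKM (67 of 1619). Above the window it was 0.476% at 100 to 1000 FPKM (5 of 1051), and 0 of the 176 components of 1000 FPKM or more were at 0. Between zero and 1 FPKM in larvae there were few: 81 of the 5356 (1.51%). Mid-level egg components thus tended to be either exactly 0 or at 1 FPKM or more in larvae.

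**Figure D1:**
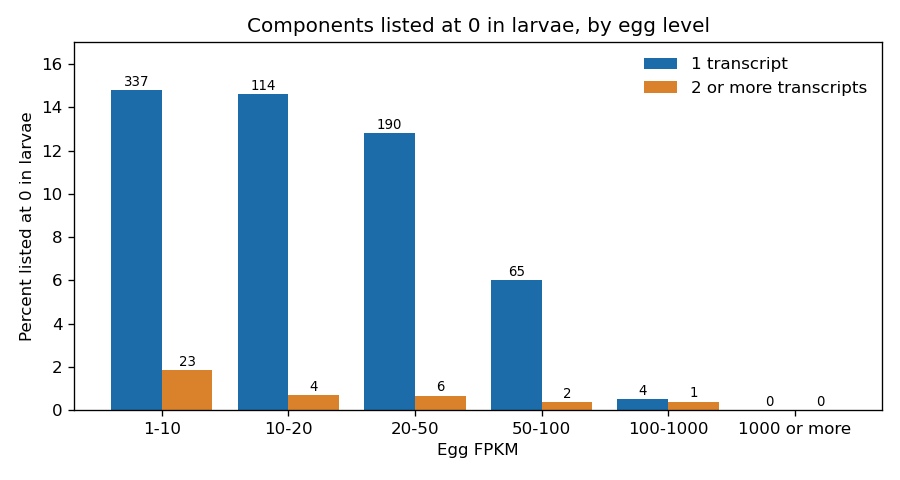
Percent of egg components listed at 0 in larvae (y axis) in classes of egg FPKM (x axis), for components with 1 transcript and with 2 or more; the number above a bar counts the components at 0. Among components of 1 transcript the share goes from 14.6% at 10 to 20 FPKM to 0.504% at 100 to 1000 FPKM, and from 10 FPKM up it stays below 1% where there are 2 or more transcripts.

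Nearly all of the 381 had a single assembled transcript, a property that the rule did not use. Of the 381, 369 (96.9%) had 1 transcript, against 83.9% of all components and 59.9% of the 4975 egg components in the same window that were above 0 in larvae. Seen the other way, 11.0% of the 3347 components with 1 transcript in that window were at 0 in larvae, against 0.597% of the 2009 with 2 or more. The 12 members with several transcripts held at most 4, and lay between 12.88 and 70.8 FPKM in eggs, with a median of 22.7 FPKM. The components with 0 in larvae and 1 to 10 FPKM in eggs were similar, as 93.6% of those 360 had 1 transcript. Components are not replicates, and these shares were compared without a test.

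The egg levels of the 381 components were not spread evenly over the window but repeated a limited set of numbers. They took 207 distinct values, and 262 of the 381 (68.8%) shared their value with at least 1 other member. The values 31.73 and 35.67 FPKM were each held by 7 members, and 34.505, 45.9, 49.68 and 50.02 FPKM by 6 each. By contrast, 33.0% of the 4975 components above 0 in larvae shared a value, and none of the 81 with a larval value between 0 and 1 FPKM did. The larger set has more chances of sharing, so these shares are not on an equal footing.

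The repeated values came in close pairs that followed each other at slowly changing distances. The highest pair was 49.68 and 50.02 FPKM, next came 47.575 and 47.9, and then 45.59 and 45.9. The upper value of a pair lay 0.684% above the lower one at the top of the series, and 0.371% at 10.79 FPKM. Each pair lay about 4.42% above the next at the top, 3.73% at 21.845 FPKM and 4.55% at 10.79 FPKM. Why these distances changed was not tested. Following the pairs down to 10 FPKM gave 41 pairs, of which 35 had both values among the rows they were read from. Such a series is what whole fragments give. A fragment is worth 1 fixed FPKM value for a transcript of a given length, and with 2 libraries of slightly unequal depth averaged it is worth 1 of 2 close values. Each such value is called a step here, and 2 steps are 2 fragments, in the same library or in each. Counts are not in the table, so the reading of steps as fragments rests on the values.

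Of the 381 components, 198 (52.0%) had an egg level of 1 step and 92 (24.1%) of 2 steps. Another 10 had 3 or 4 steps, and 81 (21.3%) matched no sum of up to 4 steps within 0.006 FPKM for 1 step and 0.015 FPKM for 4. At 3 steps were 2.1% of the members and at 4 steps 0.525%, beside 3.27% and 4.27% of the possible values in the window. A value at 1 or 2 steps could not be placed at 3 or 4, and 76.1% of members but 3.42% of possible values were at 1 or 2. These shares are therefore not on an equal footing, and the 10 placements are not read as 3 or 4 fragments. The 198 at 1 step lay between 10.32 and 50.02 FPKM, and the 92 at 2 steps between 21.62 and 99.7 FPKM. The 1-step components were divided almost evenly, 98 at the lower and 100 at the upper value of a pair. Of those at 2 steps, 21 were at 2 lower values, 49 at the sum of a lower and an upper value, and 22 at 2 upper values. Read as fragments, 198 members rest on 1 egg fragment in 1 of the 2 libraries, and 49 on 1 fragment in each library.

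**Figure D2:**
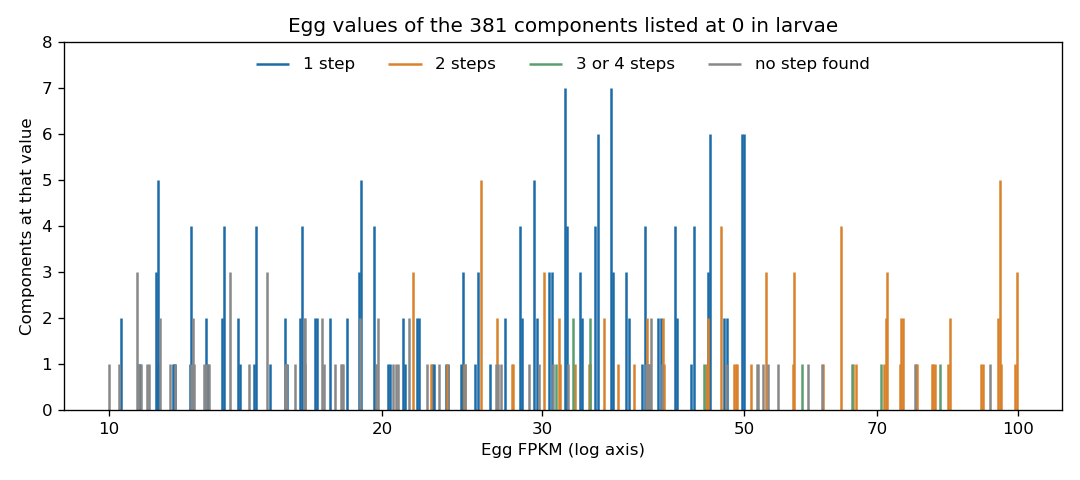
Number of the 381 components (y axis) at each distinct egg FPKM value (x axis, log scale), coloured by the number of steps that give the value. The 198 components at 1 step end at 50.02 FPKM and the 92 at 2 steps at 99.7 FPKM, and up to 7 components stand at the same value.

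The pairs were read largely from these same components, so their agreement at 1 step partly follows from that choice. Above the highest step, 48 of 61 members (78.7%) equalled 2 steps, where 2 steps cover 1.6% of the possible values. Values of 60 FPKM or more were not among those the pairs were read from, and there 40 of 46 members equalled 2 steps, which cover 1.43% of the possible values. Members at the top of the window show how exact the sums were. comp41193_c0 and comp42748_c0, at 99.7 FPKM in eggs and 0 in larvae, were among 3 components tied for the highest egg level, and 49.68 plus 50.02 gives that value. Below them, members at 74.23 and 74.47 FPKM had the sum of 2 lower values, and of a lower and an upper value, of the pair 37.115 and 37.355 FPKM.

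A check came from components outside the 381. Larval values of components listed at 0 in eggs formed a like series of pairs, starting 8 pairs higher, at 50.285 and 50.44 FPKM. Components above 0 in both stages were used to read neither series, although the egg pairs they were matched to came largely from the 381. Among those with 1 transcript, 175 had a value of 1 step in eggs and also 1 step in larvae. Of these, 172 lay on the same pair in both stages when the series were aligned at that distance of 8, and the other 3 lay at 3 different distances. The alignment was taken from these components, as the distance that most of them shared. At 47.9 FPKM in eggs, for example, the larval value was 33.0 FPKM, and at 45.59 or 45.9 FPKM in eggs it was 31.59 or 31.675 FPKM in 7 components. With 2 to 4 larval steps included, 195 of the 261 components at 1 egg step had a larval value on the matching pair. At 10 other alignments the number was between 0 and 1.

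**Figure D3:**
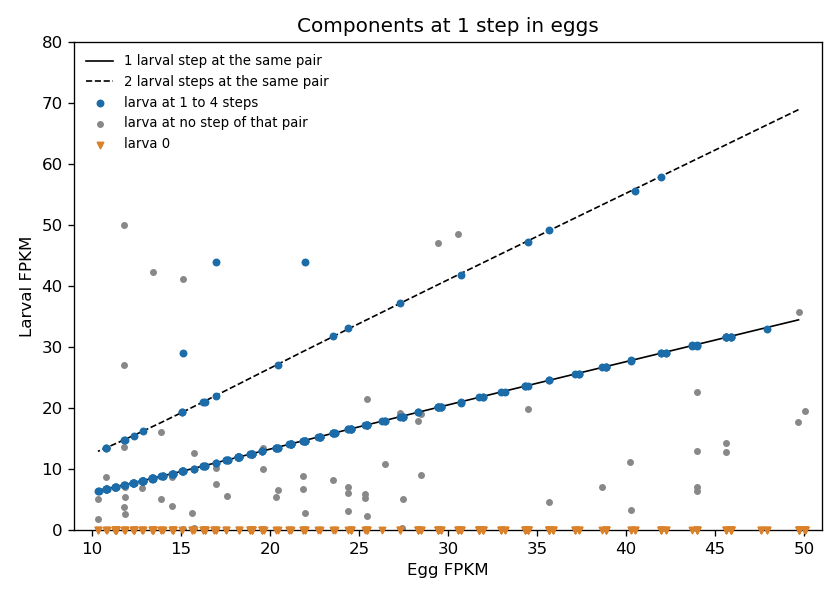
Larval FPKM (y axis) against egg FPKM (x axis) for components at 1 step in eggs: the 198 members with 0 in larvae (triangles) and the 261 components of 1 transcript above 0 in both stages (circles, of which 2 lie above the axis limit of 80 FPKM). The lines mark 1 and 2 larval steps at the pair of the egg value, and 172 circles match 1 larval step.

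The steps also set the scale of a larval zero. At the highest pair of the egg series, a fragment was worth 49.68 FPKM in eggs against 34.485 FPKM in larvae, a ratio of 1.44, and at the lowest pair the ratio was 1.60. A larval fragment was thus worth less at every pair, by a ratio that rose towards the lower pairs. How much of this difference is depth was not tested. With a floor of 3 fragments over both larval libraries as the limit that a count of 0 allows, the limit is 103 FPKM at the highest pair and 19.4 FPKM at the lowest. For all 198 members at 1 step this limit was above the egg level itself, by 1.87 to 2.08 times. For the 92 at 2 steps the limit lay between 0.936 and 1.04 times the egg level, and reached it in 58. For the 10 at 3 or 4 steps it was 0.469 to 0.679 times the egg level. Whether such placements are 3 or 4 fragments could not be told from their shares, so no drop is read from this limit. In 256 of the 300 members on steps, a larval level equal to the egg level was therefore not excluded at this depth. The exact two-sided 95% Poisson interval of a count of 0 reaches higher, to 3.69 fragments, and with it the number was 290, all those at 1 or 2 steps. For eggs, a count of 1 fragment has an exact 95% Poisson interval of 0.0253 to 5.57 fragments, and a count of 2 one of 0.242 to 7.22. These intervals and limits cover counting error only, and no fold change of a single member is given at so few fragments.

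For the 81 members that matched no step, few fragments could not be read from the value. Their median egg level was 17.8 FPKM. All 81 made up 0.169% of the egg FPKM, against 0.971% for the 300 on steps. Of the 81, 49 lay below 20 FPKM, where pairs under 10 FPKM could add sums. Following the pairs down to 5 FPKM placed 8 of the 81, of which 5 lay below 20 FPKM, and left 44 there off the steps. The remaining 32 reached 93.285 FPKM, the highest level off the steps, followed by 77.105, 60.92 and 58.835 FPKM. Of the 12 members with several transcripts, 6 were off the steps. A value off the steps could still be shared, as 14.955, 13.605 and 10.75 FPKM were each held by 3 members. Pairs under 10 FPKM may thus have been missed. Being off the steps does not show that a member rests on more fragments. All of the 81 were at 0 in larvae by the rule, and since their lengths are not known, no limit was set on their larval level.

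The share of values on steps differed between classes of components. Of the 381, 76.1% were at 1 or 2 steps, whereas 3.42% of all possible values in the window are. Among egg components of the same level with 1 FPKM or more in larvae, 8.99% of 4894 were at 1 or 2 steps, and 11.5% of the 2922 with 1 transcript. Of the 81 with a larval value between 0 and 1 FPKM, 5 were at 1 step (6.17%) and 0 at 2. The mirror class, with 10 to 100 FPKM in larvae and 0 in eggs, was far larger, at 5455 components. In it, 46.4% were at 1 or 2 larval steps, and 74.8% had 1 transcript. The egg pairs were read largely from the 381, and the larval pairs from components listed at 0 in eggs, like the mirror class. The high shares of the 381 and of the mirror class thus partly follow from that choice. The other classes were not used to read the pairs, so the classes are not on an equal footing. These shares are descriptions of the table, without a test.

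**Figure D4:**
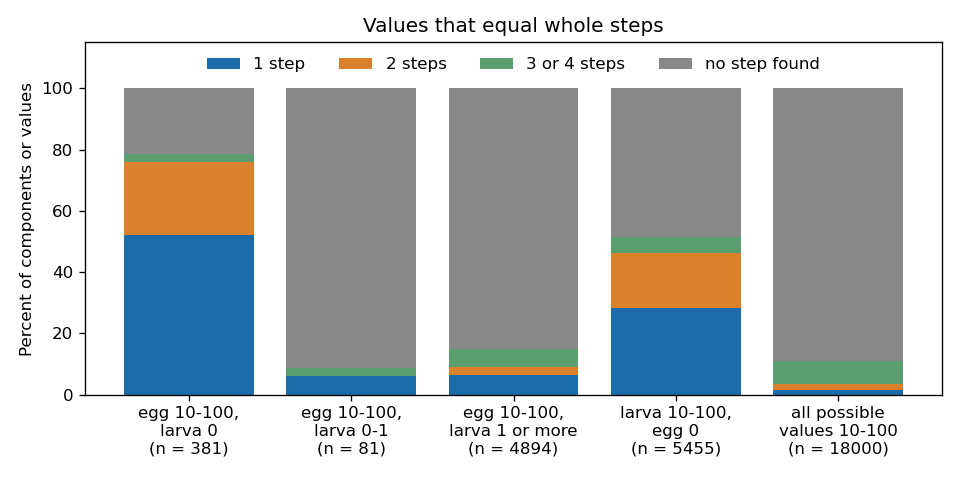
Percent (y axis) of components whose value equals 1, 2 or 3 to 4 steps, for the 381 components, for other egg components of the same level by larval value, for the mirror class (larval steps) and for all possible values in the window (egg steps). At 1 or 2 steps are 76.1% of the 381, 8.99% of those at 1 FPKM or more in larvae and 46.4% of the mirror class. The steps were read largely from classes like the 381 and the mirror class, which partly fixes their higher shares.

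Some members belonged to larger components, which the table splits into numbered subcomponents. Of the 381, 45 (11.8%) had another subcomponent in the table, against 18.1% of the egg components of the same level above 0 in larvae and 20.1% of all components. They came from 43 components, 2 of which held 2 members each. Members off the steps had another subcomponent in 14 of 81 cases (17.3%), and members on steps in 31 of 300 (10.3%). Of the 45 other rows, 15 were listed at 0 in both stages. The other 30 were all at 1 FPKM or more in larvae, so that 27 members (7.09%) had a larval partner, against 12.5% of all components and 12.8% of those of the same egg level above 0 in larvae. Among components with another subcomponent, 27 of 45 members had a larval partner, and 62.2% over the whole table did. With a limit of 10 FPKM for the partner, 4.462% of members had one.

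These 30 partners were mostly lower in larvae than in eggs, as was the median component of 10 to 100 FPKM in eggs. Of the 30, 22 had a lower and 8 a higher larval value, with a median difference of -1.76 on the log2(FPKM + 1) scale, beside a median of 0 over all components and of -1.36 over the 5356 egg components of 10 to 100 FPKM. At least 4-fold lower were 14 of the 30, where 4.4% of all components were, and at least 4-fold higher were 4, where 28.8% of all components were. All components include those at or near 0 in eggs, which cannot be 4-fold lower on this scale. The 15 rows at 0 in both stages were left out of the 30, so these shares are not on an equal footing. In the most extreme case, a member at 11.325 FPKM in eggs, 1 step, sat beside a subcomponent that went from 5881 FPKM (eggs) to 6.11 FPKM (larvae). The member with the highest level off the steps, at 93.285 FPKM, sat beside a subcomponent that went from 1581 to 2.345 FPKM. Of the 30 partners, 10 were at 100 FPKM or more in eggs.

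The opposite pattern was seen in a few components. comp26776_c1 went from 0.365 FPKM (eggs) to 40.445 FPKM (larvae), which is 4.92 higher on the log2(FPKM + 1) scale, while its partner among the 381 was at 31.73 FPKM in eggs. comp8436_c0 was at 0 in eggs and 18.58 FPKM in larvae, which is 1 larval step, so it rests on few fragments and no difference is given. It sat beside a member at 21.845 FPKM in eggs. Both of these members had an egg level of 1 step.

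**Figure D5:**
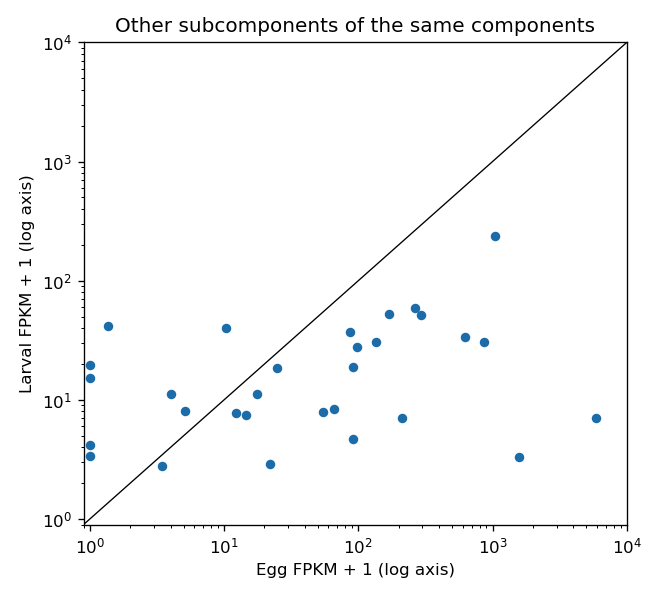
Larval against egg FPKM, each plus 1 on a log axis, for the 30 other subcomponents above 0 of components that hold a member; the line marks equal values. Below the line are 22 and above it 8.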

How the data were processed

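Strand-specific libraries of polyadenylated RNA from eggs and larvae were read at 90 bp in pairs from inserts of 200 bp, per the labels' protocols. The authors deposited FPKM values made with RSEM, per the submitters' processing notes. Its version, the assembler, the genome build and any filter were not given in the sources used here. Despite being labelled log2, the values are linear. Columns of no sample numbered 0.

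The members, the tests and the lists were chosen with earlier results of these data known. Members were counted by the rule, and shares were set beside those of other classes without a test. Steps were sought after the values had been seen: pairs were started at the highest close pair with many rows and followed down by a curve through the reciprocals, in rows with 1 transcript listed at 0 in the other stage and between 5 and 60 FPKM. A value was placed at the fewest of up to 4 steps that gave it, within 0.003 FPKM plus 0.003 FPKM for each step. The possible values are the 18000 multiples of 0.005 FPKM in the window. The functions were tested on simulated data. Differences use a pseudocount of 1 FPKM. The components named are the 2 members with the highest egg level, tied ones in order of identifier, and the 2 other subcomponents with the largest increase; other members are given by value. Tables were computed in Python 3.11.15 with pandas 2.3.3, numpy 2.4.6 and scipy 1.17.1, and plots drawn with matplotlib 3.10.9.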

Additional observations from a re-analysis of the deposited data

How the results depend on the processing

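No paired analysis was possible because the table gives eggs and larvae 1 value each; leaving out replicates was likewise not possible. The 381 components became 263 with a lower egg limit of 20 FPKM and 496 with one of 5 FPKM, the extremes of 9 alternatives, and 291 when egg values were rescaled to the larval ones by a trimmed mean of log ratios. The steps, the alternatives for them and the exact interval for a count of 0 were chosen after seeing the data. With the egg pairs taken instead from the larval pairs and a smooth curve, 183 members were at 1 step, 80 at 2 and 271 at up to 4, and the possible values covered were 10.4%. A lower egg limit of 5 FPKM gave 15.52% of members with another subcomponent and 1.21% of the egg FPKM, and one of 20 FPKM gave 0.991% of the egg FPKM. Without an upper limit, 5.864% of the egg components were at 0 in larvae, with 1.196% of the egg FPKM. With larval values below 0.1 FPKM the egg FPKM held was 1.154%. With larval values below 1 FPKM, 91.99% of members had a single transcript, 8.626% of egg components belonged and 1.418% of the egg FPKM was held. The share with another subcomponent in larvae was 4.462% at a limit of 10 FPKM. The median difference of the members was -4.99 with a pseudocount of 1 FPKM, -8.27 with 0.1 and -2.03 with 10, so that its size is set by the pseudocount.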

Other observations

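The larval series of pairs went 8 pairs above the egg series, from 36.06 to 50.44 FPKM. Of the 365 components of 1 transcript at 1 larval step on these pairs, 357 were listed at 0 in eggs, and 3 were at 10 FPKM or more. The same share was not computed for the lower larval pairs or for all components. The count is therefore not read as particular to these pairs.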
